A study of Arabidopsis thaliana with 14 samples.

Results

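Poly(A)+ RNA from whole extracts of Arabidopsis flower buds was compared between aly1-2 mutants and wild-type Columbia plants, the background shared by both genotypes. The comparison used the 3 total aly1-2 libraries and the 3 total wt libraries, 6 of the 14 libraries of the series, chosen by their titles. The 8 nuclear and cytoplasmic libraries entered no test and are given as values. Buds were immature, of stages 1 to 12, and came from inflorescences of plants grown under 16 h days at 22 °C. Of the 37336 genes counted, 20431 passed the filter on low counts with all 6 libraries, and 20775 passed it without aly1-2 replicate 1. Each result is given for both sets, called here the 6-library fit and the 5-library fit.

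ALY1 belongs to the ALY/REF family of nuclear RNA-binding adaptors, which join nascent mRNA and hand it to the export machinery. Arabidopsis has several ALY genes, and aly1-2 is a mutant allele of one of them. Buds of these stages hold meristems, all 4 floral organ types, and anthers in which the tapetum, the nurse layer of the pollen sac, secretes the pollen wall and pollen coat. Abscisic acid (ABA), the hormone of water deficit, binds receptors that inhibit phosphatases and so free kinases, which activate bZIP factors that bind ABA-responsive elements in promoters.

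ALY1 (AT5G59950, chromosome 5, 24139939 to 24141937, TAIR10.1) had 14.1, 20.2 and 18.0 CPM (TMM-scaled counts relative to library size, the unit of all levels below) in aly1-2 replicates 1, 2 and 3, against 105, 112 and 119 CPM in wt replicates 1, 2 and 3. All 3 mutant libraries, replicate 1 included, lay far below the wild type. Library totals were 12736374, 10236467 and 11315488 counts in aly1-2, against 8763029, 9574346 and 9720598 in wt. Ribosomal RNA took 3.64% to 6.92% of the counts in aly1-2 and 5.14% to 5.92% in wt. Defining genes of flowers were present: the sum of 6 floral organ and meristem markers was 812 ± 15.9 CPM in aly1-2 and 670 ± 45.0 CPM in wt (SD, n = 3 each), an exact two-sided permutation p of 0.1, the smallest that 3 against 3 allows, and 0.35 after Benjamini-Hochberg adjustment over 7 marker sums. Seed storage and oil body markers summed to under 1 CPM in every library.

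Beyond the most changed single genes, mutant buds had, in the 5-library fit, lower transcript levels of dehydration and ABA effectors, sugar starvation genes, the bHLH regulators of iron uptake, nitrate reductases and several detoxification families. They had higher levels of the ferritins FER3 and FER4, the Cu/Zn superoxide dismutases CSD1 and CSD2, pollen coat genes and some pectin lyase-like proteins. With all 6 libraries, 42 genes were higher and 55 lower in aly1-2, 0.206% and 0.269% of those tested, by edgeR's quasi-likelihood test at a Benjamini-Hochberg adjusted p under 0.05. Without aly1-2 replicate 1, 708 genes were higher and 931 lower, 3.41% and 4.48%. All 97 genes of the first set (0.475% of those tested) were also among the 1639 genes of the second (7.89%). Most of the pathway results below are therefore called in the 5-library fit alone, and they rest on 2 mutant libraries. The labels do not say whether replicates were separate plants or pools, so p-values measure the spread between these libraries, which may be technical. In bulk RNA, fewer cells of a type and less RNA per cell cannot be told apart.

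Replicate 1 stood apart from the other mutant libraries. On the first principal component of log2 CPM, which held 55.4% of the variance, aly1-2 replicates 1, 2 and 3 had scores of -11.5, 50.1 and 55.9, against -29.9, -45.9 and -18.8 in wt. On this axis replicate 1 was closer to the wild type than to either other mutant library. On the second component, with 17.8% of the variance, replicate 1 had -40.9 and stood apart from all other libraries, which had -10.2 and 14.4 in aly1-2 replicates 2 and 3, against 21.2, -5.87 and 21.4 in wt. Leaving out any other single library gave 7 to 22 genes higher and 9 to 32 lower, so no other library had a comparable effect on the counts. The common biological coefficient of variation was 0.141 without replicate 1 and 0.179 with all 6 libraries. Genes called in the 5-library fit alone lost their call when replicate 1 was added. Their choice thus favours genes in which replicate 1 lay nearer the wild type, and the next values describe these genes only. For those called lower, the median log2 difference from the wt mean was -0.42 in replicate 1, -1.29 in replicate 2 and -1.10 in replicate 3. Replicate 1 lay below all 3 wt libraries for 552 of 861 such genes (64.1%), within the wt range for 257 and above it for 52. For genes called higher there, the medians were 0.12, 0.68 and 0.95, and replicate 1 lay above all wt libraries for 298 of 656 (45.4%), within their range for 218 and below it for 140. The same shares over all tested genes were not counted. Why replicate 1 stood apart was not tested.

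**Figure D1:**
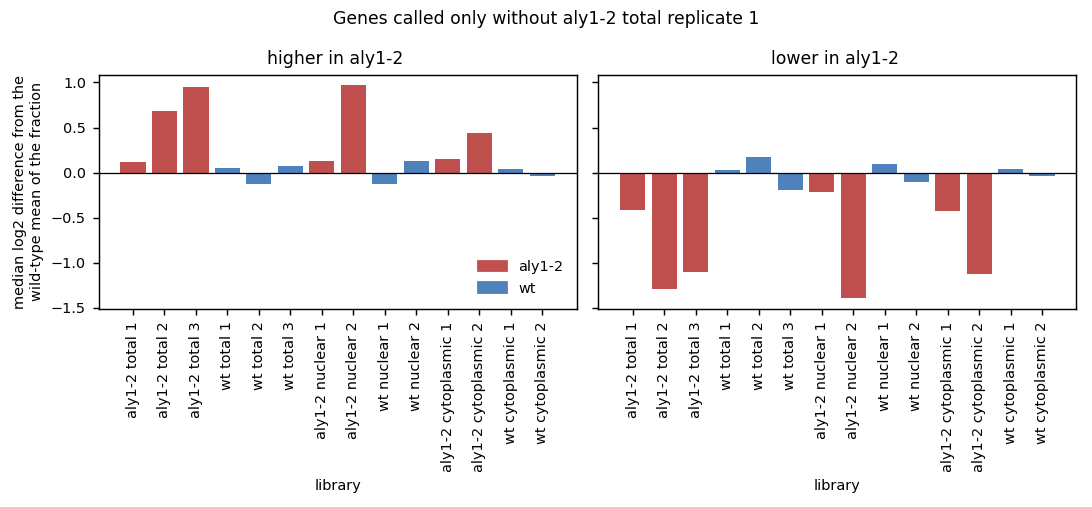
Median log2 difference from the wild-type mean of the same RNA fraction (bars, one per aly1-2 or wt library) over the genes called higher (left) or lower (right) only when aly1-2 total replicate 1 is left out. Total replicate 1 has medians of 0.12 and -0.42, closer to the wild type than replicates 2 and 3, which the choice of these genes favours.

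The fraction libraries carry the same numbers and a like pattern. Over the 851 genes called lower in the 5-library fit alone that had a nuclear value, the median log2 difference from the nuclear wt mean was -0.22 in nuclear aly1-2 replicate 1 and -1.39 in nuclear replicate 2. Over the 652 such higher genes these medians were 0.13 and 0.97. Nuclear RNA had the same sign as total RNA for 95.5% of the lower and 93.7% of the higher genes, beside 55.8% of all genes with a positive nuclear difference. In cytoplasmic RNA the share with the same sign was 87.5% for lower and 69.2% for higher genes. Of all genes, 49.4% had a positive cytoplasmic difference. Positive shares over all genes compare with the higher genes, and the remainder with the lower genes. Whether same-numbered total and fraction libraries came from the same plants is not stated, and these shares carry no test.

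A total of 234 gene lists and symbol families were counted, and 49 of them had at least 3 called members in a direction at 3 or more times the share of all tested genes. The lists were chosen with earlier results of these data known, so passing this mark is a description. Some symbol families also repeat a list, as for the WRKY factors, so these counts are not of separate groups. Counts are over members that passed the low-count filter. An unadjusted p under 0.05 was held by 2977 of the 20431 genes tested with 6 libraries and by 4962 of 20775 with 5. Counts of list members at that level are to be read beside these. Several lists, DNA replication among them, lay near or below that share. Medians are over all such members, called or not, and the medians over all tested genes were 0.01 and 0.00 with 6 and 5 libraries.

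**Figure D2:**
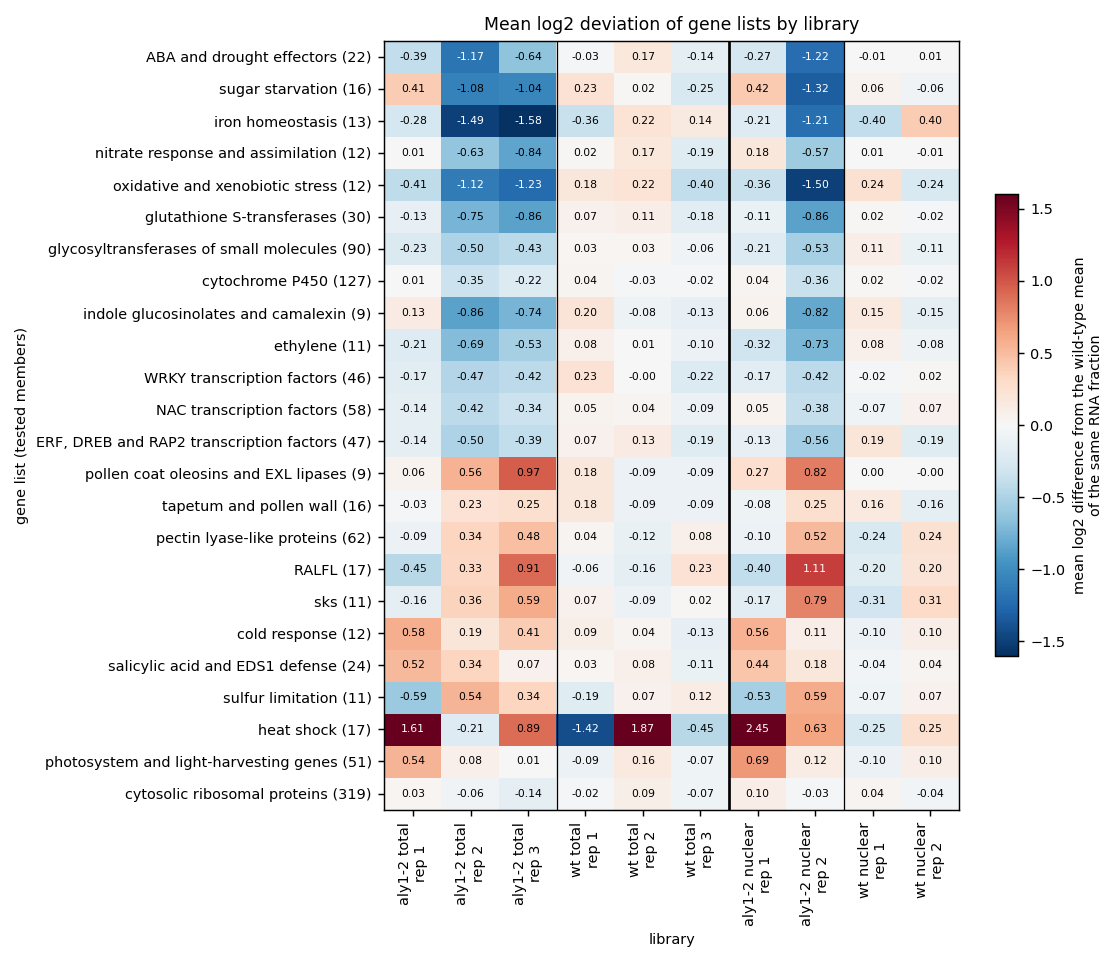
Mean log2 difference of each gene list from the wild-type mean of the same RNA fraction, by list (down the page, tested members in brackets) and library (total and nuclear, aly1-2 left of wt). The sugar starvation list stands at 0.41, -1.08 and -1.04 in aly1-2 total replicates 1, 2 and 3, and the pollen coat list at 0.06, 0.56 and 0.97.

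The ABA and drought effectors are proteins made when cells lose water, such as dehydrins, and the regulators that ABA induces. Of 22 tested members, 4 fell and 0 rose with 6 libraries, against 0.269% of all genes lower, and 11 fell and 4 rose without replicate 1, against 4.48% and 3.41%. The median log2 fold change was -0.42 with 6 libraries and -0.93 with 5. The other 2 tools, run on the same 6 libraries, called 11 members lower each, and DESeq2 called 4 and limma with quality weights 2 members higher. The limma weights were 0.463, 1.72 and 0.834 for aly1-2 replicates 1, 2 and 3. Here and below, limma therefore counted replicate 1 less than any other library. Over all genes DESeq2 called 0.92% higher and 1.79% lower, and limma 1.04% and 2.44%. LTI65 (RD29B, AT5G52300, chromosome 5, 21237021 to 21239531) is a classical reporter of ABA signalling. It had 21.1, 8.91 and 13.6 CPM in aly1-2, against 98.3, 89.3 and 81.3 CPM in wt. Every mutant library lay well below every wt library, and the log2 fold change was -2.62 (SE 0.27, edgeR adjusted p = 0.00916) with 6 libraries and -2.99 (SE 0.18, adjusted p = 2.85e-05) with 5. Its call was lost only without wt replicate 1 (adjusted p = 0.0725).

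LTI78 (RD29A, AT5G52310), the tandem neighbour of LTI65 and a reporter of both cold and drought, was chosen after its values were seen. It had 212, 110 and 194 CPM in aly1-2, against 190, 155 and 166 CPM in wt. These libraries overlapped, and the log2 fold change was 0.02 (SE 0.22) with 6 libraries and -0.16 (SE 0.21, adjusted p = 0.687) with 5. The 250 bases before the annotated starts of LTI65 and LTI78, and of LEA4-5 as another member that fell, are shown because these neighbours differ in the ABA-responsive element (ABRE) core ACGTG while both hold the dehydration-responsive element (DRE) core CCGAC. Sequences are from TAIR10.1 (RefSeq), 5′ to 3′ on the gene's strand, and capitals mark every ACGTG or CCGAC on either strand. They lie at chr5:21236771-21237020 (plus strand), chr5:21240467-21240716 (plus strand) and chr5:2090431-2090680 (minus strand).
LTI65: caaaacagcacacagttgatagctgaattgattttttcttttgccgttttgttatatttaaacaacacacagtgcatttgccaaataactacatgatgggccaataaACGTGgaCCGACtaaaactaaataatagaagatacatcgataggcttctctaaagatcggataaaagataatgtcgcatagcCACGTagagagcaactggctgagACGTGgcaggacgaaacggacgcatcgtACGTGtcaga
LTI78: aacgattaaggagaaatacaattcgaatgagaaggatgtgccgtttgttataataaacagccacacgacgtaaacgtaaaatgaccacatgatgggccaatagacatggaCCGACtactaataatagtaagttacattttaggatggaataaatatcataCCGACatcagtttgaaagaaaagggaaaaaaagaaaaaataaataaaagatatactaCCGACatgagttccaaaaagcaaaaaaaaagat
LEA4-5: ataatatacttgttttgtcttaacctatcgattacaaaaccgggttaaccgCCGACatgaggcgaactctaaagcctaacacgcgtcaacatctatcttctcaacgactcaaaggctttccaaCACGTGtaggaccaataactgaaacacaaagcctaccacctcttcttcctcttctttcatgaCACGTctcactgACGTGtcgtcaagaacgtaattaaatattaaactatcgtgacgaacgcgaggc
The LTI65 window held 4 ABRE cores and 1 DRE core, and the LEA4-5 window also held 4 and 1, with both strands of the palindrome CACGTG counted. The LTI78 window held 0 ABRE cores and 3 DRE cores. TSPO and HB-7, the other members called lower in both fits, are not shown. The TSPO window held 0 ABRE cores and 1 DRE core, and the HB-7 window 0 of either. A match is a description of the letters, not a site or a cause.

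Over all promoters of this length, the ABRE core was present in 23.4% of the 20597 tested genes with a window. It was present in 37.8% of the 920 genes lower without replicate 1 and in 24.0% of the 704 genes higher. Of the 55 genes lower with 6 libraries, 25 held it (45.5%). The G-box CACGTG, which contains the ABRE core on both strands, was in 12.6% of the lower, 6.82% of the higher and 7.39% of all promoters. The DRE core was in 16.0%, 9.66% and 12.8%. The W-box core TTGAC was in 52.6%, 45.5% and 44.3%, and the site II element TGGGCC in 8.26%, 8.81% and 16.6%. In the 55 genes lower with 6 libraries the DRE core was in 36.4%, the W-box core in 29.1%, and the G-box and the site II element in 16.4% each, so the W-box and site II shares did not keep the order seen without replicate 1. Within the ABA and drought list, 6 of the 11 members lower without replicate 1 held an ABRE core and 5 a DRE core, while 2 of the 4 members higher and 4 of the 7 members without a call held an ABRE core. The ABRE core thus did not separate the members that fell from the rest of this list.

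**Figure D3:**
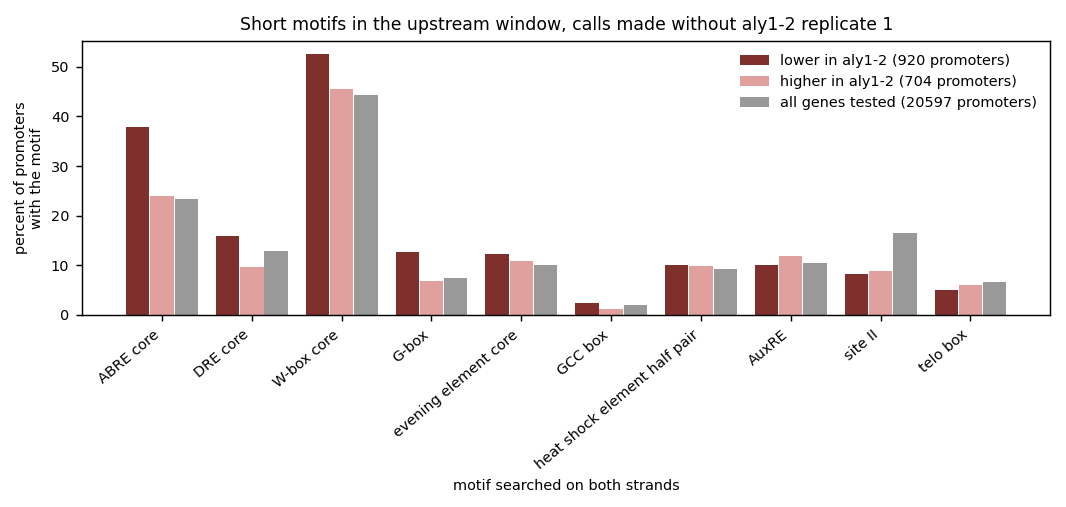
Share of promoters (250 bases before the annotated start) that hold each motif on either strand, for genes higher or lower in aly1-2 without replicate 1 and for all genes tested. The ABRE core is in 37.8% of the lower, 24.0% of the higher and 23.4% of all promoters.

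The other members with a call in both fits were LEA4-5, HB-7 and TSPO. LEA4-5, a late embryogenesis abundant protein that protects other proteins during drying, had 16.0, 7.95 and 8.66 CPM in aly1-2, against 41.1, 45.6 and 36.0 CPM in wt. TSPO, a membrane protein induced by ABA, had 9.84, 3.35 and 2.98 CPM in aly1-2, against 29.8, 35.8 and 26.8 CPM in wt. HB-7, a homeodomain factor that ABA and water deficit induce, had 75.2, 46.8 and 75.9 CPM in aly1-2, against 133, 164 and 145 CPM in wt. None of these overlapped between genotypes. The log2 fold changes with 6 libraries were -1.90 for LEA4-5 (SE 0.25, adjusted p = 0.0264), -2.48 for TSPO (SE 0.39, adjusted p = 0.0484) and -1.16 for HB-7 (SE 0.19, adjusted p = 0.05, just under the threshold before rounding). Each was called in 1 of the 6 fits that leave out a library, the one without aly1-2 replicate 1, and their adjusted p reached 0.155, 0.201 and 0.199 in the others.

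Another 7 members fell in the 5-library fit alone, among them RAB18, LTI30, HB-12 and RD26. RAB18, a dehydrin, had 196, 20.6 and 64.5 CPM in aly1-2, against 744, 944 and 557 CPM in wt. The mutant libraries differed among themselves by more than the wt libraries did, though all lay below the wt. Its log2 fold change was -2.99 (SE 0.68, adjusted p = 0.115) with 6 libraries and -4.13 (SE 0.44, adjusted p = 0.000687) with 5. LTI30, also a dehydrin, had 18.7, 5.56 and 10.6 CPM in aly1-2, against 48.7, 52.1 and 34.2 CPM in wt, with adjusted p of 0.075 and 0.000757. HB-12, the close relative of HB-7, had adjusted p of 0.0516 and 0.00314 with 6 and 5 libraries, and RD26, a NAC factor of the dehydration response, 0.0557 and 0.0017. Members that rose in the 5-library fit were COR47, ERD10, KIN1 and ERD7, known from cold and early dehydration. COR47 and ERD10 are acidic dehydrins, and KIN1 is a small hydrophilic protein. ERD10 had 1970, 2240 and 2840 CPM in aly1-2, against 1720, 1560 and 1390 CPM in wt, with log2 fold changes of 0.59 (adjusted p = 0.177) and 0.71 (SE 0.15, adjusted p = 0.0229). COR47 and ERD10, acidic dehydrins, thus moved opposite to RAB18 and LTI30.

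Upstream of these effectors, 1 of 22 ABA receptors, phosphatases and kinases fell with 6 libraries and 3 without replicate 1, and 0 rose in either fit. HAI1, a clade A protein phosphatase that ABA induces, had 43.6, 37.5 and 51.4 CPM in aly1-2, against 75.1, 81.7 and 84.3 CPM in wt, with log2 fold changes of -0.86 (SE 0.13, adjusted p = 0.0387) and -0.85 (SE 0.15, adjusted p = 0.00705). Of the 6 fits that leave out a library, 2 called it, those without aly1-2 replicate 1 or 3, and its adjusted p reached 0.174 without wt replicate 1. PYL7, an ABA receptor, and ABI1, a phosphatase it inhibits, fell in the 5-library fit, by 1.03 and 0.90 on the log2 scale, and had -0.82 and -0.70 without a call in the 6-library fit.

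Late embryogenesis abundant proteins as a family had 60 tested members, of which 2 fell with 6 libraries. Without replicate 1, 13 fell and 7 rose. The medians were -0.01 and -0.03, so the family as a whole did not move one way. LEA7 had 71.9, 35.1 and 61.5 CPM in aly1-2, against 270, 295 and 215 CPM in wt, and its log2 fold change was -2.21 (SE 0.25, adjusted p = 0.0146) with 6 libraries and -2.43 (SE 0.23, adjusted p = 0.0004) with 5. It was called in 4 of the 6 fits that leave out a library, with adjusted p of 0.106 without wt replicate 1 and 0.0777 without wt replicate 2. AT2G42560, an LEA protein, had 32.4, 3.45 and 5.31 CPM in aly1-2, against 112, 114 and 88.4 CPM in wt. Its log2 fold change in the 5-library fit was -4.58 (SE 0.21, adjusted p = 9.04e-06), while the 6-library value was -2.91 (adjusted p = 0.124). AT5G38760 rose there by 1.43 (SE 0.20, adjusted p = 0.00242, against 0.231 with 6 libraries), with 15.9, 32.9 and 50.9 CPM in aly1-2. Here replicate 1 lay within the wt range, and replicates 2 and 3 above it.

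Sugar starvation genes, which plants induce in darkness or when carbohydrate runs low, had 9 of 16 members lower without replicate 1 and 0 higher, against 4.48% of all genes lower. With 6 libraries edgeR called 0 members (3 at an unadjusted p under 0.05), DESeq2 2 and limma 3, all lower, and the medians were -0.24 and -0.70 with 6 and 5 libraries. The mean log2 difference of the list from the wt mean was 0.41 in aly1-2 replicate 1, but -1.08 and -1.04 in replicates 2 and 3. DIN2, a beta-glucosidase, had 122, 2.68 and 1.96 CPM in aly1-2, against 182, 194 and 104 CPM in wt. Replicate 1 lay within the wt range and the others far below it. DIN2 had a log2 fold change of -6.10 in the 5-library fit (SE 0.34, adjusted p = 2.18e-05), while the 6-library value was -1.91 (SE 1.21, adjusted p = 0.504). SEN1, a gene of dark-induced senescence, had 129, 12.2 and 21.3 CPM in aly1-2, against 97.7, 82.2 and 59.5 CPM in wt. In replicate 1 it exceeded every wt library, and its log2 fold change was -0.55 (adjusted p = 0.761) with 6 libraries and -2.25 (adjusted p = 0.00105) with 5. ASN1, the dark-induced asparagine synthetase, had 189, 53.4 and 76.3 CPM in aly1-2, against 158, 162 and 122 CPM in wt, with log2 fold changes of -0.47 (adjusted p = 0.621) and -1.18 (adjusted p = 0.00396). The transcription factor bZIP1, a mediator of low energy signalling, had a log2 fold change of -0.81 (adjusted p = 0.21) with 6 libraries and -1.22 (SE 0.13, adjusted p = 0.000703) with 5. The trehalose phosphate enzymes TPS8, TPS9 and TPS11, class II members of their family, fell by 0.84, 0.59 and 0.69 in the 5-library fit, 3 of 9 tested, while their 6-library values were -0.54, -0.35 and -0.39 with no call.

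Iron homeostasis genes had calls in both directions. The transcription factors bHLH38, bHLH39, BHLH100 and BHLH101 are induced in iron deficiency and activate iron uptake, while ferritins store iron in plastids. Of 13 tested members, 7 fell and 4 rose without replicate 1, and edgeR called 0 with 6 libraries, with 10 at an unadjusted p under 0.05. DESeq2 with 6 libraries called 2 lower and 1 higher, and limma 4 and 2. The medians were -0.86 and -1.43 with 6 and 5 libraries. bHLH38 had 5.39, 0.0958 and 0.279 CPM in aly1-2, against 7.16, 18.5 and 18.5 CPM in wt, with log2 fold changes of -2.85 (adjusted p = 0.202) and -6.20 (SE 0.66, adjusted p = 0.000679). bHLH39 had 1 read in aly1-2 replicates 2 and 3 together, against 207 reads in the 3 wt libraries, a ratio in CPM of wt over aly1-2 of 156 with a 95% counting interval of 27.6 to 6170. BHLH101 had 3 reads against 145, a ratio of 36.3 (12.2 to 178). In aly1-2 replicate 1 bHLH39 had 4.61 CPM, within the wt range of 3.92 to 11.1 CPM, and BHLH101 had 2.19 CPM, below the wt range of 3.58 to 7.04 CPM. FRO3, a ferric reductase of mitochondria, and BTS, an E3 ligase that restrains the deficiency response, fell by 1.43 and 1.55 in the 5-library fit (adjusted p = 0.0009 and 0.00295), and had -1.05 and -1.10 with 6 libraries (adjusted p = 0.134 and 0.189).

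FER4 had 48.2, 68.9 and 65.3 CPM in aly1-2, against 36.3, 30.5 and 37.6 CPM in wt. Every mutant library, replicate 1 included, lay above every wt library, and the log2 fold change was 0.80 (SE 0.15, adjusted p = 0.0752) with 6 libraries and 0.95 (SE 0.12, adjusted p = 0.00171) with 5. FER3, chosen after its values were seen, had 49.3, 73.7 and 70.2 CPM in aly1-2, against 44.5, 38.3 and 50.4 CPM in wt, and rose in the 5-library fit by 0.70 (SE 0.13, adjusted p = 0.0111, against 0.214 with 6 libraries). The other members that rose there, neither of them storage proteins, were IRT1, the root iron transporter, and YSL1, a transporter of chelated iron.

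Nitrate genes had 4 of 12 tested members lower without replicate 1, 0 higher, and 0 called by edgeR with 6 libraries, where 2 had an unadjusted p under 0.05 and DESeq2 called 1 and limma 2 lower. NIA1 and NIA2 are the 2 nitrate reductases. NIA2 had 163, 39.3 and 29.4 CPM in aly1-2, against 113, 195 and 96.6 CPM in wt. NIA1 had 60.5, 18.5 and 14.2 CPM in aly1-2, against 55.7, 80.0 and 47.7 CPM in wt. For both, replicate 1 lay within the wt range and replicates 2 and 3 below it, and the 5-library log2 fold changes were -1.97 (SE 0.28, adjusted p = 0.00298) for NIA2 and -1.90 (SE 0.22, adjusted p = 0.00114) for NIA1. With 6 libraries they were -0.80 (adjusted p = 0.564) and -0.97 (adjusted p = 0.409). BT2 and LBD39, regulators that nitrate induces, fell in the 5-library fit by 2.33 and 1.62, and had -1.46 and -1.06 with 6 libraries, without a call.

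**Figure D4:**
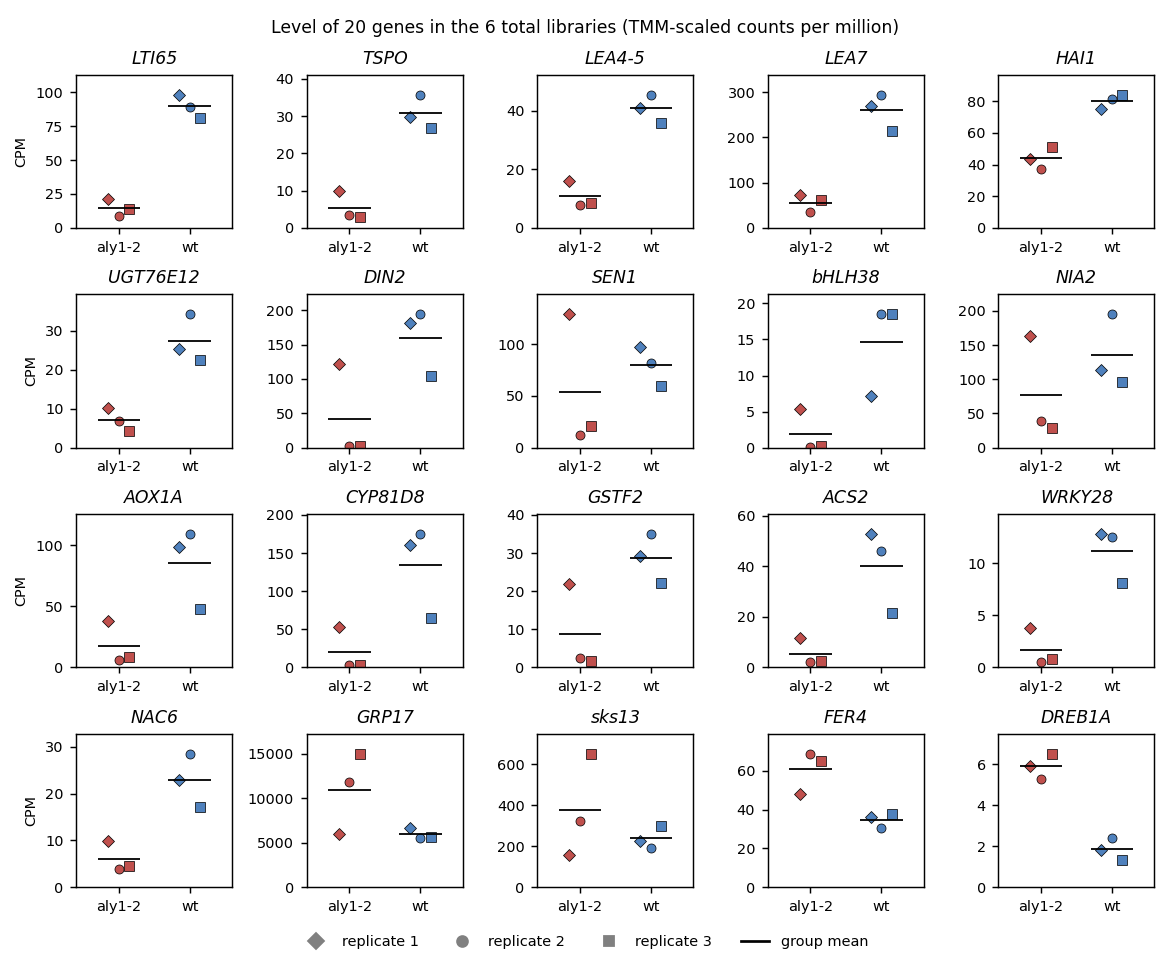
CPM of 20 genes in the 3 aly1-2 (left) and 3 wt (right) total libraries, with a symbol for each replicate number and a line at each group mean. LTI65 has all mutant libraries below all wt libraries, while replicate 1 lies within the wt range for DIN2.

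Markers of oxidative and xenobiotic stress had 5 of 12 members lower and 3 higher without replicate 1. With 6 libraries edgeR called 0 (7 at an unadjusted p under 0.05), DESeq2 3 lower and 1 higher, and limma 4 and 1. AOX1A, the mitochondrial alternative oxidase, had 37.9, 6.42 and 8.29 CPM in aly1-2, against 98.5, 109 and 47.8 CPM in wt. CYP81D8, a P450 that many stresses induce, had 53.2, 2.78 and 3.35 CPM in aly1-2, against 161, 175 and 65.2 CPM in wt. Both had all mutant libraries below all wt libraries, with replicate 1 nearest to the wild type and wt replicate 3 lowest of the wt. The 5-library log2 fold changes were -3.53 (SE 0.35, adjusted p = 0.000429) for AOX1A and -5.44 (SE 0.46, adjusted p = 0.000202) for CYP81D8, and the 6-library values -2.26 (adjusted p = 0.175) and -2.74 (adjusted p = 0.261). UGT74E2, a glucosyltransferase of indole butyric acid, had 38.5, 24.9 and 25.2 CPM in aly1-2, against 104, 116 and 54.8 CPM in wt, and adjusted p of 0.0624 and 0.0033. The members that rose were CSD1 and CSD2, the Cu/Zn superoxide dismutases of cytosol and plastid, and APX1, a cytosolic ascorbate peroxidase. CSD1 had 52.8, 88.6 and 81.6 CPM in aly1-2, against 55.1, 49.3 and 41.1 CPM in wt, and CSD2, chosen after its values were seen, 28.6, 58.5 and 44.4 CPM in aly1-2, against 35.1, 31.9 and 24.6 CPM in wt. In both, replicate 1 lay within the wt range, and adjusted p was 0.218 and 0.381 with 6 libraries and 0.0059 and 0.0255 with 5.

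Some detoxification enzymes attach glutathione or sugars to small molecules. Glutathione S-transferases had 10 of 32 tested members lower and 0 higher without replicate 1, against 0 of 30 called by edgeR with 6 libraries, where 11 had an unadjusted p under 0.05. DESeq2 called 4 lower and 1 higher there, and limma 4 lower and 0 higher. GSTF2 had 21.8, 2.40 and 1.68 CPM in aly1-2, against 29.1, 35 and 22.2 CPM in wt, and fell by 3.81 in the 5-library fit (SE 0.27, adjusted p = 5.25e-05), with -1.70 (adjusted p = 0.351) in the 6-library fit. GSTF6, another phi class member, had 22.5, 3.26 and 2.51 CPM in aly1-2, against 34.9, 43.1 and 14.2 CPM in wt, with adjusted p of 0.352 and 0.00219. Glycosyltransferases of small molecules had 4 of 90 members lower with 6 libraries and 20 of 94 with 5, and 0 higher in either fit, with medians of -0.09 and -0.11. UGT76E12 had 10.3, 6.90 and 4.28 CPM in aly1-2, against 25.3, 34.3 and 22.6 CPM in wt, with log2 fold changes of -1.92 (SE 0.29, adjusted p = 0.0393) and -2.29 (SE 0.25, adjusted p = 0.000734). UGT73C7 and UGT85A1 also fell in both fits, by 1.41 and 0.91 with 6 libraries and by 1.44 and 0.89 with 5, as did AT4G15260, by 1.04 and 1.19. Of the fits that leave out 1 library, UGT76E12, UGT85A1 and AT4G15260 were called only in that without aly1-2 replicate 1, with adjusted p up to 0.189, 0.189 and 0.201. UGT73C7 was also called without wt replicate 3, with adjusted p up to 0.222 in the others. Cytochromes P450, a far larger family of oxidases, had 18 of 132 members lower and 7 higher without replicate 1. For P450 with 6 libraries edgeR called 0 (25 at an unadjusted p under 0.05), DESeq2 4 lower and 2 higher, and limma 8 and 1. Methyl esterases, which release active hormones from their methyl esters, had MES10 and MES5 lower in both fits, by 0.86 and 0.73 with 6 libraries and by 0.85 and 0.77 with 5. Their adjusted p reached 0.18 without wt replicate 1 for MES10 and 0.168 without aly1-2 replicate 2 for MES5.

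Ethylene and camalexin genes were also among the lower groups. Of 12 tested ethylene genes, 3 fell and 1 rose without replicate 1. In the 6-library fit edgeR called 0 of 11 (4 at an unadjusted p under 0.05), and DESeq2 and limma each called 3 lower and 1 higher. EFE, an ACC oxidase that makes ethylene, had 34.9, 16.1 and 15.8 CPM in aly1-2, against 52.7, 58.2 and 43.8 CPM in wt, with log2 fold changes of -1.20 (adjusted p = 0.133) with 6 libraries and -1.69 (SE 0.15, adjusted p = 0.00024) with 5. ACS2, an ACC synthase, had 11.6, 2.2 and 2.42 CPM in aly1-2, against 52.7, 45.9 and 21.5 CPM in wt, while ACS6, another ACC synthase, had 155, 202 and 167 CPM in aly1-2, against 121, 83.9 and 101 CPM in wt. All mutant libraries lay on one side of all wt libraries in each. Adjusted p was 0.0935 and 0.000443 for ACS2, and 0.088 and 0.0105 for ACS6, with 6 and 5 libraries. Camalexin is the indole phytoalexin of Arabidopsis, and CYP71A13 and PAD3 act in its synthesis. Its list, with indole glucosinolate genes, had 3 of 11 members lower without replicate 1 and 0 of 9 called by edgeR with 6 libraries, where 4 had an unadjusted p under 0.05, DESeq2 called 0 and limma 2. CYP71A13 had 4.84, 0.287 and 1.02 CPM in aly1-2, against 9.18, 12.2 and 7.81 CPM in wt, with adjusted p of 0.197 and 0.000775. PAD3 had 0 reads in aly1-2 replicates 2 and 3, against 43 in wt, at least 10.8-fold lower against a floor of 3 reads over both libraries, while replicate 1 had 12 reads. CYP81F2, of indole glucosinolate modification, had 2 reads against 104, a ratio of 39.1 (10.5 to 327).

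Stress-linked transcription factor families fell more often than all genes without replicate 1, where 4.48% of all genes were lower and 3.41% higher. The WRKY factors also rose more often than all genes (8.7%), though by less than the 3 times used above to pick lists. The NAC factors and the ERF, DREB and RAP2 group rose at about the share of all genes. WRKY factors had 8 of 46 lower and 4 higher without replicate 1, NAC factors 10 of 58 lower and 2 higher, and the ERF, DREB and RAP2 group 9 of 49 lower and 2 higher. With 6 libraries, edgeR called 0 WRKY and 0 NAC members, with 13 and 15 at an unadjusted p under 0.05, and in the ERF group 1 rose and 1 fell, the gene annotated ERF1-1 (a translation release factor that the symbol search placed in this list). With all 6 libraries DESeq2 called 4 WRKY members higher and 2 lower, and limma 4 higher and 4 lower. Of the NAC members DESeq2 called 0 higher and 7 lower, and limma 1 higher and 6 lower. The lower members included WRKY75, WRKY6 and NAC6 (ORE1), all known regulators of leaf senescence. NAC6 had 9.84, 3.83 and 4.47 CPM in aly1-2, against 22.9, 28.5 and 17.2 CPM in wt, with log2 fold changes of -1.90 (SE 0.34, adjusted p = 0.0664) and -2.46 (SE 0.24, adjusted p = 0.000443). WRKY6 had 13.2, 4.69 and 3.07 CPM in aly1-2, against 30.2, 32.8 and 14.6 CPM in wt. Its adjusted p was 0.164 and 0.00203, and neither gene overlapped between genotypes. RAP2.6, an ERF factor of stress, had 17, 1.25 and 3.17 CPM in aly1-2, against 28.9, 38.5 and 20.9 CPM in wt, with adjusted p of 0.25 and 0.000429. The higher WRKY members included WRKY70 and WRKY53, known from the salicylic acid response.

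Among secreted proteins, lipid transfer proteins had 9 of 62 lower and 5 higher without replicate 1, and chitinases 3 of 14 lower and 1 higher, with 0 called by edgeR in either family with 6 libraries and 20 and 7 at an unadjusted p under 0.05. DESeq2 called 3 lipid transfer proteins and 0 chitinases lower, and limma 6 and 0. LTP4, a lipid transfer protein that ABA induces, had 465, 209 and 268 CPM in aly1-2, against 651, 943 and 626 CPM in wt, and fell by 1.63 in the 5-library fit (SE 0.20, adjusted p = 0.00135), with -1.24 (adjusted p = 0.123) in the 6-library fit. GRP-3, a small glycine-rich cell wall protein, had 407, 82.0 and 87.3 CPM in aly1-2, against 409, 561 and 503 CPM in wt, with log2 fold changes of -1.35 (adjusted p = 0.326) and -2.54 (SE 0.16, adjusted p = 2.99e-05). Its replicate 1 lay just below the wt range.

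Pollen coat genes rose in the 5-library fit. Oleosin-like glycine-rich proteins and the EXL lipases form the lipid coat that tapetum cells deposit on pollen. Of 9 tested members, 6 rose without replicate 1 against 3.41% of all genes, 0 fell. With 6 libraries edgeR called 0 (6 at an unadjusted p under 0.05), DESeq2 3 and limma 0, and the medians were 0.54 and 0.74. GRP17, an oleosin-like protein of the coat, had 6010, 11800 and 15000 CPM in aly1-2, against 6670, 5500 and 5630 CPM in wt. Its log2 fold change was 0.88 (SE 0.31, adjusted p = 0.248) with 6 libraries and 1.17 (SE 0.18, adjusted p = 0.00425) with 5. GRP16 had 61.3, 104 and 155 CPM in aly1-2, against 69.6, 55.7 and 56.2 CPM in wt, and adjusted p of 0.255 and 0.00428. GRP20 had 105, 150 and 212 CPM in aly1-2, against 102, 87.8 and 89.8 CPM in wt, and adjusted p of 0.2 and 0.00447. For the coat genes GRP17 and GRP16, replicate 1 lay within the wt range, and replicates 2 and 3 above it. EXL4 and EXL6, the lipases, rose in the 5-library fit by 0.65 and 0.87 on the log2 scale, against 0.48 and 0.68 without a call in the 6-library fit.

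Genes of the pollen wall and of late pollen followed. In the tapetum and pollen wall list 4 of 16 rose without replicate 1 and 0 fell, with medians of 0.08 and 0.13. All 6 libraries gave 0 calls by edgeR and DESeq2 and 1 by limma, and 4 had an unadjusted p under 0.05. SWEET8, a sugar transporter needed for the pollen wall, had 16.3, 30.2 and 30.4 CPM in aly1-2, against 15.8, 14.8 and 13.9 CPM in wt, with adjusted p of 0.189 and 0.00141. CYP704B1, a hydroxylase of sporopollenin precursors, MS2, a fatty acyl reductase, and QRT3, a polygalacturonase that separates tetrads, rose in the 5-library fit by 0.70, 0.52 and 0.59, against 0.47, 0.40 and 0.44 without a call in the 6-library fit. Pectin lyase-like proteins, which include polygalacturonases of the pollen tube, had 11 of 64 higher and 1 lower without replicate 1, with medians of 0.28 and 0.37. With 6 libraries edgeR called 0 of 62 (14 at an unadjusted p under 0.05) and DESeq2 and limma 1 each. The SKU5-similar multicopper oxidases sks11, sks12, sks13 and sks14 all rose in the 5-library fit, while none was called with 6 libraries. sks13 had 156, 322 and 652 CPM in aly1-2, against 223, 191 and 299 CPM in wt, with log2 fold changes of 0.66 (SE 0.44, adjusted p = 0.52) and 1.03 (SE 0.26, adjusted p = 0.0421). Replicate 1 was below every wt library there. The RALFL peptides (4 of 17), CHX cation exchangers (3 of 14), FLA arabinogalactan proteins (3 of 16), LCR cysteine-rich peptides (3 of 17) and SYP syntaxins (3 of 23) also had members that rose in the 5-library fit, with 1 LCR and 1 SYP member lower. In the 6-library fit edgeR called 0 in each, with 0 RALFL, 2 CHX, 7 FLA, 2 LCR and 3 SYP members at an unadjusted p under 0.05. Of all genes, 2977 of 20431 were at that level. The other tools called 0 in these families, apart from 1 SYP member that limma called lower. RALFL4, a peptide signal of pollen tube integrity, had 16.7, 38.9 and 83.9 CPM in aly1-2, against 27.8, 22.1 and 32.9 CPM in wt, with adjusted p of 0.509 and 0.0315.

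The summed mature pollen markers, RALFL4 among them, rose from replicate 1 to 3 in aly1-2, the order also seen in sks13 and RALFL4. They were 758, 1490 and 3150 CPM in aly1-2 replicates 1, 2 and 3, against 1250, 1190 and 1750 CPM in wt, so the mutant libraries lay both below and above the wild type. In nuclear RNA the sums were 1840 and 5460 CPM in aly1-2 replicates 1 and 2, against 2430 and 3410 CPM in wt. The sum averaged 1800 ± 1230 CPM in aly1-2 and 1400 ± 307 CPM in wt (SD, n = 3 each, exact two-sided permutation p = 0.8). Of 13 mature pollen genes, 2 rose in the 5-library fit, where 11 had an unadjusted p under 0.05, and 0 passed even that with 6 libraries. Tapetum markers summed to 215, 247 and 255 CPM in aly1-2, against 264, 221 and 211 CPM in wt, with overlap between genotypes. Male meiocyte markers summed to 20.1, 24.3 and 18.0 CPM in aly1-2, against 14.1, 15.9 and 15.3 CPM in wt. The part of these sums in the pollen results was not tested.

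**Figure D5:**
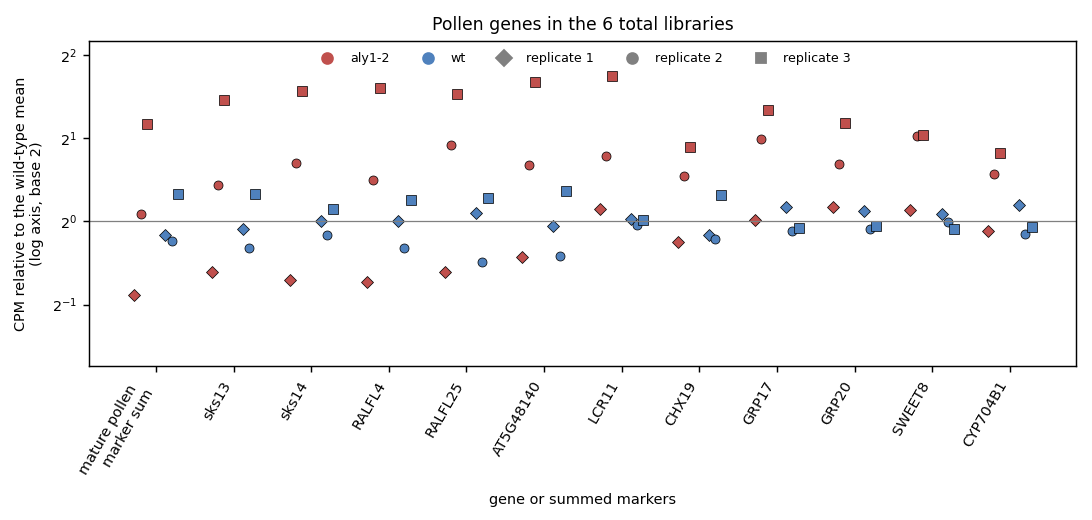
CPM relative to the wild-type mean (log axis) of summed mature pollen markers and of pollen genes in the 3 aly1-2 (left) and 3 wt (right) total libraries. For the marker sums and for GRP17, replicate 1 is the lowest and replicate 3 the highest aly1-2 library.

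Salicylic acid, cold and jasmonate genes gave smaller rises, and in several of the genes named here replicate 1 lay with the other mutant libraries. In the salicylic acid and EDS1 list 1 of 24 rose with 6 libraries and 4 of 25 with 5, with 0 lower in either fit. EDS1, a lipase-like hub of immunity, had 44.9, 64.6 and 65.6 CPM in aly1-2, against 44.8, 38.2 and 36.8 CPM in wt, and adjusted p of 0.191 and 0.00662. WRKY70 had 55.6, 65.2 and 50.9 CPM in aly1-2, against 41.2, 35.9 and 32.3 CPM in wt, and adjusted p of 0.0857 and 0.0213. In both the mutant libraries lay above all wt libraries, in EDS1 by a small margin for replicate 1. The cold response list had 1 member higher of 12 with 6 libraries and, with 5, 4 higher and 2 lower. COR413IM1, a chloroplast envelope protein of cold acclimation, had 72.8, 59.9 and 66.1 CPM in aly1-2, against 41.9, 35 and 45 CPM in wt, and adjusted p of 0.0633 and 0.0169.

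In the jasmonate signalling list 4 of 19 rose without replicate 1, and with 6 libraries edgeR and DESeq2 called 0 (5 at an unadjusted p under 0.05) and limma 1. They included MYC2, the main transcription factor of the hormone, and MYB21 and MYB24, which act in stamens and petals. MYB21 had 79.6, 120 and 181 CPM in aly1-2, against 94.9, 63.1 and 82.1 CPM in wt, with replicate 1 within the wt range. In the 5-library fit it rose by 0.91 (SE 0.19, adjusted p = 0.0205), and its 6-library value was 0.66 (adjusted p = 0.326). Sulfur limitation genes had 3 of 12 higher without replicate 1 and 0 lower, with 0 called with 6 libraries by any of the 3 tools and 0 at an unadjusted p under 0.05. APR3, a reductase of sulfate assimilation, had 28.3, 82.5 and 71.3 CPM in aly1-2, against 35.6, 43.7 and 43.6 CPM in wt, with adjusted p of 0.474 and 0.00287. Replicate 1 was below the wt there and the other mutant libraries above it. The touch and wounding list split, with 0 called with 6 libraries by edgeR (9 at an unadjusted p under 0.05), 4 higher and 1 lower by DESeq2, and 3 higher and 4 lower of 17 in the 5-library fit. TCH4, a cell wall xyloglucan enzyme, fell by 0.65 there, with -0.35 and no call in the 6-library fit. MPK3, a kinase of immunity and stomatal development, had 59.5, 87.3 and 67.5 CPM in aly1-2, against 43.6, 41.3 and 33.4 CPM in wt, and rose by 0.97 with 5 libraries (SE 0.15, adjusted p = 0.00414), against 0.86 (adjusted p = 0.0753) with 6.

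Basic cell machinery had few calls by edgeR. Of 319 cytosolic ribosomal proteins, 1 rose with 6 libraries (AT1G33850, at most 0.315 CPM in wt), and 3 rose and 3 fell with 5. Most had small negative log2 fold changes. With 6 libraries 80 were positive and with 5 libraries 65, against 51.5% and 50.1% of all genes, and the medians were -0.08 and -0.13. Of 238 pentatricopeptide repeat proteins, 0 were called with 6 libraries by edgeR or DESeq2 (21 at an unadjusted p under 0.05), limma called 1 lower, and 5 fell with 5. In this family 78 were positive with 6 libraries and 79 of 240 with 5, with a median of -0.13 in each fit. Of 51 splicing genes edgeR called 0 with 6 libraries (7 at an unadjusted p under 0.05), DESeq2 1 and limma 0, and 1 rose with 5. Of 51 photosystem genes edgeR called 0 with 6 libraries, with 16 at an unadjusted p under 0.05 and 40 with a positive log2 fold change. DESeq2 called 4 and limma 2 higher there, against 0.92% and 1.04% of all genes. With 5 libraries 1 rose and 2 fell, and 32 were positive. The mean log2 difference of the photosystem genes from the wt mean was 0.54, 0.08 and 0.01 in aly1-2, against -0.09, 0.16 and -0.07 in wt. DNA replication genes had 0 of 36 called in either fit by edgeR or DESeq2, or by limma with 6 libraries, with 3 and 6 at an unadjusted p under 0.05 with 6 and 5 libraries. Heat shock genes had 0 of 17 called in either fit, 0 at an unadjusted p under 0.05, and 0 by DESeq2 or limma. Their mean deviation was 1.61, -0.21 and 0.89 in aly1-2, against -1.42, 1.87 and -0.45 in wt, so the libraries varied within each genotype.

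Among single genes called in the 5-library fit alone, some of the lowest had 0 or 1 read in aly1-2 replicates 2 and 3 together. AT1G30700, a berberine bridge enzyme-like oxidase, had 0 reads in aly1-2 replicates 2 and 3, against 251 in wt, at least 62.9-fold lower. AT1G62420 likewise had 0 reads, against 207, at least 51.9-fold lower. In replicate 1 these genes had 41 and 49 reads. LCR67, a defensin-like protein, had 1 read against 319, a ratio of 240 (42.7 to 9500), and TH8, a thioredoxin, 1 read against 297, a ratio of 223 (39.8 to 8840). TH8 had 184 reads in replicate 1. These intervals cover counting error only. The 10 highest included CWINV2, a cell wall invertase, with 4.29, 12.8 and 32.1 CPM in aly1-2, against 5.15, 3.57 and 6.99 CPM in wt, and AT5G39870, with 4.14, 11.3 and 25.0 CPM in aly1-2, against 3.58, 3.36 and 5.24 CPM in wt. For both, replicate 1 lay within the wt range, and adjusted p was 0.294 and 0.235 with 6 libraries and 0.00809 and 0.00401 with 5.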

How the data were processed

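Poly(A)+ RNA libraries of total bud extracts were compared, 3 aly1-2 and 3 wt. The values that the authors deposited were estimated counts (expected counts) per gene. The submitters' processing notes name STAR 2.5.1b, featureCounts (Subread 1.6.1) and TAIR10. Whole numbers made up 86.4% to 89.2% of a library's values, and the sources used here do not say how shared reads were split. Of the 398 named genes, 183 had whole counts in all 6 libraries and 95 overlap another annotated gene, so the others, and overlapping genes, are less certain. A stray line beginning with # was dropped from each file, and counts were rounded to whole numbers, since the design had assumed counts.

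Genes were filtered (filterByExpr, minimum count 10, minimum total 15), scaled by TMM and tested in edgeR 4.0.16 (R 4.3.3) by its quasi-likelihood method, with Benjamini-Hochberg adjustment over all genes tested. Residual degrees of freedom were 4 with 6 libraries and 3 with 5. Each adjusted p in the text is from edgeR unless another tool is named. The script was first tested on simulated counts. CPM were TMM-scaled, with total and nuclear libraries scaled separately, and log2 CPM used a prior count of 2. Of 37336 genes, 37051 matched TAIR10.1 (RefSeq), the source of names, coordinates and promoters. The 250 bases upstream of the annotated start were searched for motifs on both strands.

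The 95 lists by name or product and 139 families by symbol letters were chosen with earlier results of these data known, and carry no test of their own. Of 573 list members written by locus, 14 did not match the annotation's name and were dropped. Named genes were ALY1, up to 6 members with the smallest p of each of the 49 lists that had at least 3 calls in a direction at 3 times the background, up to 2 of every other list, and the 10 highest and 10 lowest genes called only without aly1-2 replicate 1. Only some of these are printed. Genes outside this rule are named as chosen after their values were seen. Alternatives were leaving out each library, RLE scaling, no filter, a replicate block, dropping ribosomal RNA and organelle genes, DESeq2 1.42.0 and limma 3.58.1 with quality weights. DESeq2 without aly1-2 replicate 1 was added after seeing the data. Folds against 0 reads are bounds against 3 reads over the group, and ratios against 1 to 3 reads have exact 95% counting intervals.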

Additional observations from a re-analysis of the deposited data

How the results depend on the processing

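The number of genes called depended strongly on the libraries and the tool. Leaving out one library gave between 7 and 708 genes higher and between 9 and 931 lower, against 42 and 55 with all 6. The upper ends of both ranges are the counts without aly1-2 replicate 1. DESeq2 with 6 libraries called 188 higher and 365 lower, limma with quality weights 212 and 499, and no filter on low counts 129 and 299. DESeq2 without aly1-2 replicate 1, an alternative chosen after seeing the data, called 733 and 952. RLE scaling (36 and 45) and dropping ribosomal RNA and organelle genes (38 and 45) stayed within 1.5 times of the counts reported. The cause of these differences was not tested. Deviations of same-numbered aly1-2 and wt libraries correlated at -0.11, -0.26 and 0.29, while differently numbered ones ranged from -0.34 to 0.41. Whether the numbers pair the samples is not stated, and so few correlations cannot decide it. With the replicate number as a block, 10 genes were higher and 10 lower.

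Of 97 genes called with 6 libraries, 14 were called in all 6 fits that leave out a library and 42 in only 1. The direction reversed for sks12 without aly1-2 replicate 3, and its log2 fold change ran from -0.01 to 0.65 over the fits that leave out one library. LTI78, near 0 throughout, also changed sign and ran from -0.16 to 0.26 over these fits. It had -0.05 without wt replicate 2, -0.01 without wt replicate 3, -0.16 without aly1-2 replicate 1, -0.08 without aly1-2 replicate 3, -0.03 with the replicate block, -0.16 with DESeq2 without aly1-2 replicate 1 and -0.27 with limma. Depth limits genes near 1 CPM, where few reads carry the value.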

Other observations

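Several of the lower genes are known markers of leaf senescence, and a list of 16 such markers was drawn up after their values had been seen, so its counts are a description with no support from the choice. Of 15 tested members, 0 were called with 6 libraries. Without aly1-2 replicate 1, 9 fell and 0 rose, against 4.48% and 3.41% of all genes. The medians were -0.41 and -1.35 on the log2 scale. SAG12, the member with too few reads to be tested, had 0.859, 0.862 and 0.186 CPM in aly1-2, against 0, 0 and 0.206 CPM in wt. SAG21, a late embryogenesis abundant protein of mitochondria, had at most 180 CPM in aly1-2, against 412, 671 and 360 CPM in wt. All mutant libraries lay below all wt libraries, and its log2 fold change was -1.70 (SE 0.31, edgeR adjusted p = 0.067) with 6 libraries and -1.87 (SE 0.32, adjusted p = 0.00672) with 5. SAG13, a short-chain dehydrogenase, had 30.2, 4.02 and 2.70 CPM in aly1-2, against 27.3, 44.7 and 20.6 CPM in wt, with replicate 1 within the wt range. Of the chlorophyll breakdown genes, ACD1 (PAO) fell in the 5-library fit by 0.61 (adjusted p = 0.0268, against 0.32 with 6 libraries), and NYE1 and PPH were not called in either fit. NYE1 had 19.6, 20.2 and 18.6 CPM in aly1-2, against 20.1, 22.8 and 28.3 CPM in wt. YLS9 (NHL10), a gene of defense and senescence, had 5, 0.383 and 0.372 CPM in aly1-2, against 1.23, 2.63 and 1.54 CPM in wt, so replicate 1 was above every wt library and the other mutant libraries below.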
